A study of Mus musculus with 12 samples.

Results

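The genes described here are 10 regulators of proliferation: the transcription factors Myb, Mybl2, Myc and Mycn, the D-type cyclins Ccnd1, Ccnd2 and Ccnd3, and the cyclin-dependent kinase (CDK) inhibitors Cdkn1a, Cdkn1b and Cdkn2c. They were listed by name out of 43280 gene symbols in the count table, with their levels across the sorted populations in view. Their levels and differences are therefore given as a description, and the calls that the fit of all genes made for them are listed once, beside the share of all genes called, as no evidence of a difference. All 10 were found, and 10 of 10 passed the filter on low counts. The tissue was the submandibular salivary gland of the mouse embryo at embryonic day 15. All embryos carried the transgene Tg(KRT5-Venus)1Sgkd, in which the keratin 5 promoter drives a fluorescent protein, and all cells were sorted by flow cytometry as positive for E-cadherin, the adhesion protein of epithelium. The sort then split the cells by an antibody to Kit, a receptor tyrosine kinase, and by Venus, written K5 below. It gave 12 libraries, of which 3 held Kit+ K5+ cells, 3 Kit+ K5- cells, 3 Kit- K5+ cells and 3 Kit- K5- cells. The sources used here do not say how many embryos went into each library, so the spread between libraries may be partly technical.

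D cyclins bind Cdk4 and Cdk6, and the complexes phosphorylate the retinoblastoma protein, which frees E2F factors to switch on genes for DNA synthesis. Cdkn2c is an INK4 inhibitor that binds Cdk4 and Cdk6 directly, while Cdkn1a and Cdkn1b belong to the Cip/Kip inhibitors, which act on complexes of cyclins with their kinases. Myc and Mycn pair with Max on E-boxes and raise genes of ribosome building and nucleotide supply, and Mybl2 joins the MuvB complex at promoters of mitotic genes. Myb itself is best known from progenitors of blood, airway and colon. In the developing salivary gland, Kit marks epithelium of the end buds and keratin 5 marks progenitors and basal cells of the ducts.

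Promoters are shown for Myb, Mybl2 and Mycn, the 3 members whose windows held an E2F element among the 7 of 10 members with a promoter in the RefSeq table (build GRCm38.p6). Each window is 300 bases long, written 5′ to 3′, with 250 bases before the start of transcription and 50 from it on. Capitals mark matches to TTGGCGGG or TTTNNCGC on either strand, motifs chosen after the sequences had been seen. The windows are chr10:21160935-21161234 on the minus strand for Myb, chr2:163054385-163054684 on the plus strand for Mybl2 and chr12:12941787-12942086 on the minus strand for Mycn.
Myb: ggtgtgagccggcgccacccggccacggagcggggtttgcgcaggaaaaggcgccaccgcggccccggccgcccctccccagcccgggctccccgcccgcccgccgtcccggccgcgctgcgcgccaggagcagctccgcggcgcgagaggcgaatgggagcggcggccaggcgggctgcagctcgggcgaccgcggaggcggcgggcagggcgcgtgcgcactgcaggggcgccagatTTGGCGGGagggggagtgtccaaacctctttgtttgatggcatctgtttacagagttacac
Mybl2: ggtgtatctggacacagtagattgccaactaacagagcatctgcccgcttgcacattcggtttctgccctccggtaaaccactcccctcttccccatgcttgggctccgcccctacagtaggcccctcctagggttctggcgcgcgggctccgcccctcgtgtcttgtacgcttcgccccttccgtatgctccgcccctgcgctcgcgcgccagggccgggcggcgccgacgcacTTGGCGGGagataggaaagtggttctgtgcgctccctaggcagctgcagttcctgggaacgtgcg
Mycn: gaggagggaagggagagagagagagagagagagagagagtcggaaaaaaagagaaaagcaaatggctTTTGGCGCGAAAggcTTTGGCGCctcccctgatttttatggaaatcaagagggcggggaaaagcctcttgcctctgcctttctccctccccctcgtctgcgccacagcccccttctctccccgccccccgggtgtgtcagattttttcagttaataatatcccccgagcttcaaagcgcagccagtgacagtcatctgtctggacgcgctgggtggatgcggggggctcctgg
Counting the start base as 0, TTGGCGGG lay from -11 to -4 in Myb and from -15 to -8 in Mybl2, on the strand of the gene. Of 32851 promoter windows of the same length, 320 (0.974%) held these letters on either strand. In Mycn, TTTNNCGC lay from -183 to -176 and from -168 to -161 on the gene's strand, and from -179 to -172 on the other strand, where it overlapped the match before it. That looser motif was in 1698 windows (5.17%). The Mycn window also held TTTGAA, the core of the CHR element of cell cycle genes, from -14 to -9 on the other strand, a motif of 17.9% of windows. The E-box CACGTG, in 7.15% of windows, was found in 1 window of Cdkn2c, from 34 to 39. A match of letters is not evidence of binding.

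The libraries held 5589037 to 13724364 counts, and mitochondrial transcripts took 5.59% to 30.9% of them, with means of 23.7% ± 6.60 for Kit+ K5+, 17.2% ± 8.81 for Kit+ K5-, 27.97% ± 3.32 for Kit- K5+ and 9.07% ± 3.33 for Kit- K5- libraries. Kit itself followed the sort, at 319 ± 15.9 CPM among Kit+ K5+ and 343 ± 89.5 CPM among Kit+ K5- cells, against 22.4 ± 6.22 CPM among Kit- K5+ and 14.7 ± 5.25 CPM among Kit- K5- cells (CPM, read counts scaled to library size after TMM normalization, mean ± SD, n = 3). Krt5 averaged 5.25 ± 4.27 CPM among Kit+ K5+ and 2.43 ± 2.16 CPM among Kit+ K5- cells, which overlapped, and 18.9 ± 4.86 CPM among Kit- K5+ and 4.20 ± 3.17 CPM among Kit- K5- cells. Cdh1, the gene of E-cadherin, averaged 799.9 ± 293 CPM among Kit+ K5+, 705 ± 203 CPM among Kit+ K5-, 587 ± 64.3 CPM among Kit- K5+ and 173 ± 24.4 CPM among Kit- K5- cells. The Kit- K5- libraries stood apart: 16 mesenchyme genes, collagens among them, summed to 523 to 1071 CPM in the other 9 libraries and to 13002 to 20979 CPM there, while 19 genes of epithelium in general summed to 1647 to 3434 CPM elsewhere and to 489 to 616 CPM there. All 19 epithelial genes were detected in every library. Erythroid and neuronal markers also summed higher in every Kit- K5- library than in any other, and leukocyte markers summed to 559 CPM in Kit+ K5- replicate 1, to at most 108 CPM in the 8 libraries of the other Kit+ and the Kit- K5+ cells, and to 247 to 1431 CPM in the Kit- K5- libraries. In Kit+ K5- replicate 1, 8 mast cell genes summed to 4959 CPM, against 128 and 224 CPM in the other Kit+ K5- libraries and at most 46.9 CPM in any library of the other populations. In libraries of bulk cells, fewer cells of a type and less RNA per cell cannot be told apart. Below, a difference for Kit is Kit+ over Kit- and one for K5 is K5+ over K5-, on the log2 scale with TMM scaling; on the epithelial scale, libraries were instead scaled to the 19 epithelial genes.

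Myb showed the most graded pattern of the 10. The gene (chromosome 10, 21124935 to 21160984, minus strand) had 309.7, 163 and 153 CPM among the Kit+ K5+ libraries and 130.3, 123 and 99.9 CPM among the Kit+ K5- libraries. It had 68.8, 67.9 and 51.3 CPM among Kit- K5+ cells and 13.2, 14.5 and 15.1 CPM among Kit- K5- cells. The populations followed each other without overlap of single libraries, and the spread was widest in Kit+ K5+ cells, where replicate 1 was well above the other two. The log2 difference of Kit+ over Kit- was 1.73 ± 0.26 (SE) among K5+ cells and 3.05 ± 0.28 among K5- cells. That of K5+ over K5- was 0.82 ± 0.26 among Kit+ cells and 2.14 ± 0.27 among Kit- cells. Within each of the 3 runs of library numbers (1 to 4, 5 to 8 and 9 to 12), every one of these differences was above 0. Without Kit+ K5+ replicate 1 the difference of Kit in K5+ cells was 1.36 and that of K5 in Kit+ cells 0.42.

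Mybl2 was higher in Kit+ than in Kit- libraries on each side of the K5 sort with TMM scaling, and lower in Kit+ K5- libraries (-0.98 on log2) on the epithelial scale. This relative of Myb (chromosome 2, 163054687 to 163084688, plus strand) had 11.2, 15.3 and 13.6 CPM among Kit+ K5+ and 17.3, 15.9 and 18.2 CPM among Kit+ K5- libraries, against 8.88, 4.26 and 8.23 CPM among Kit- K5+ and 7.48, 8.27 and 6.64 CPM among Kit- K5- libraries. Kit+ libraries lay above Kit- libraries throughout, Kit+ K5- lay just above Kit+ K5+, and both Kit- populations overlapped. The log2 difference for Kit was 0.91 ± 0.34 among K5+ and 1.20 ± 0.33 among K5- cells, and that for K5 was -0.36 ± 0.33 among Kit+ and -0.07 ± 0.34 among Kit- cells.

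Myc averaged in the order of Myb with TMM scaling, with more overlap, whereas on the epithelial scale it was below the level of Kit- K5- cells for both Kit+ K5- (-0.66) and Kit- K5+ cells (-0.50). The gene (chromosome 15, 61985391 to 61990374, plus strand) had 292, 330.2 and 241 CPM among Kit+ K5+ and 154, 249.5 and 266 CPM among Kit+ K5- libraries. It had 133, 209 and 119 CPM among Kit- K5+ and 55.5, 79.3 and 107 CPM among Kit- K5- libraries. Neighbouring populations overlapped except at the low end, where the 3 Kit- K5- libraries lay below all others. For Kit the log2 difference was 0.91 ± 0.29 among K5+ and 1.47 ± 0.29 among K5- cells, and for K5 it was 0.37 ± 0.29 among Kit+ and 0.93 ± 0.29 among Kit- cells.

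Mycn (chromosome 12, 12936093 to 12941914, minus strand), which stands in for Myc in several embryonic tissues, was close to the limit of detection. It had 0.184, 0.386 and 3.36 CPM among Kit+ K5+ libraries, 1.27, 1.58 and 3.64 CPM among Kit+ K5-, 1.00, 4.12 and 2.87 CPM among Kit- K5+ and 3.54, 5.29 and 3.27 CPM among Kit- K5- libraries. The lowest of these values stood for 2 reads and the highest for 69. All 4 populations overlapped, the log2 differences of -0.60 to -1.05 had standard errors of 0.89 to 0.92, and no order of the populations could be read at this depth. Without Kit+ K5+ replicate 3 the difference for Kit among K5+ cells was -3.14 in place of -1.05, and that for K5 among Kit+ cells -2.87 in place of -0.74.

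**Figure D1:**
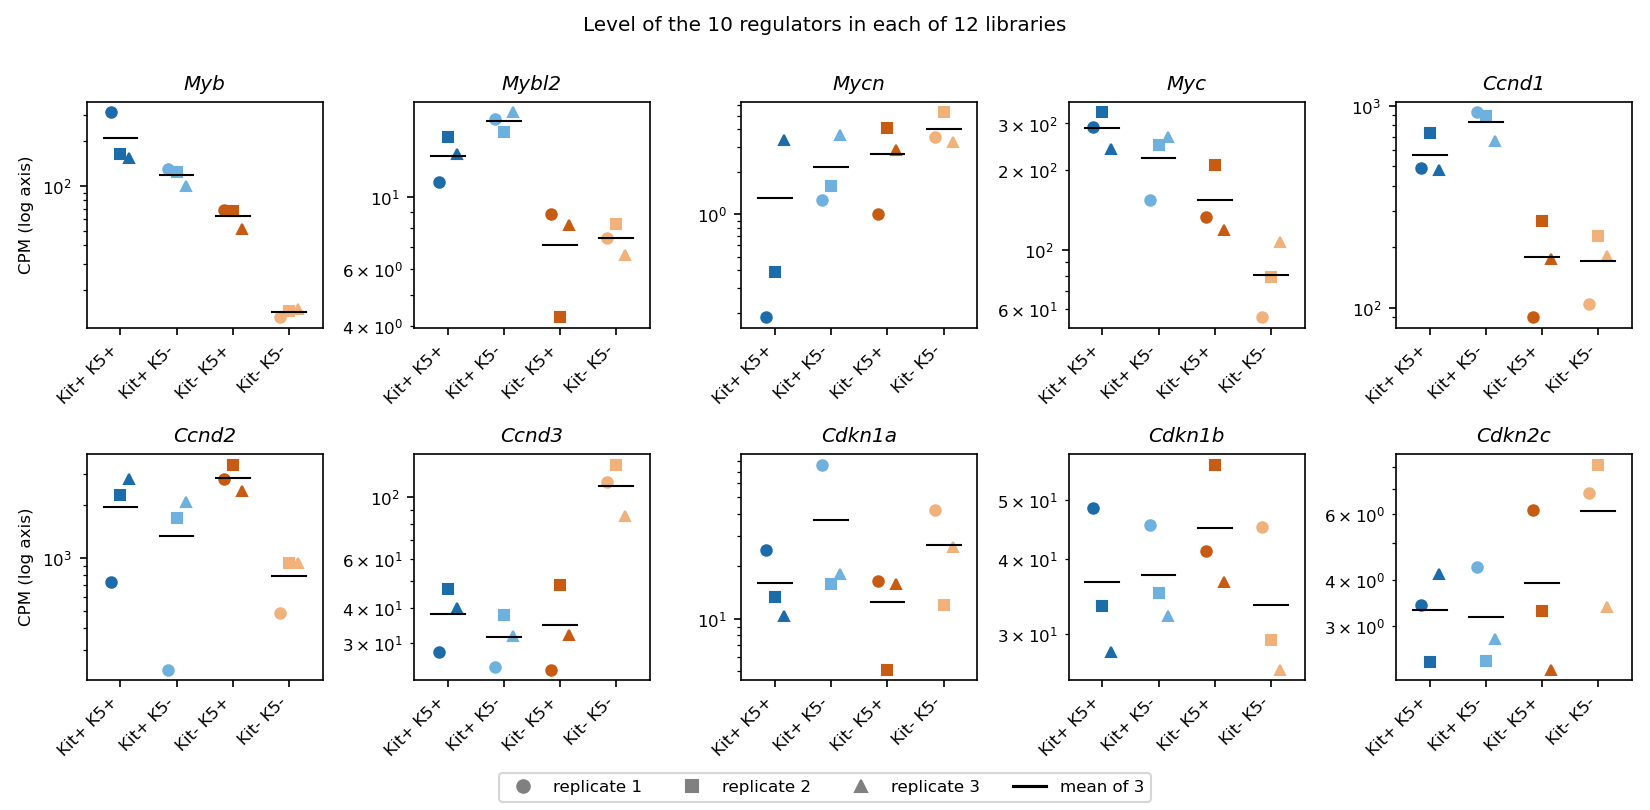
Each panel shows 1 of the 10 regulators, with CPM on a log axis for the 12 libraries in their 4 populations, marker shapes for replicates 1 to 3 and a line at the mean of 3. With the TMM scaling shown, Myb averages 208 CPM among Kit+ K5+ and 14.3 CPM among Kit- K5- cells, Ccnd1 separates Kit+ from Kit- libraries (at -0.0042 among K5- cells on the epithelial scale), and Ccnd3 stands high in Kit- K5- cells alone.

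The 3 D cyclins each had a pattern of their own. Ccnd1 (chromosome 7, 144929931 to 144939925, minus strand), a common target of growth factor signals, was higher in Kit+ cells with TMM scaling and level with Kit- K5- cells in Kit+ K5- cells (-0.0042) on the epithelial scale. It had 491, 731 and 479 CPM among Kit+ K5+ and 924, 885 and 666 CPM among Kit+ K5- libraries, against 89.9, 269.7 and 176 CPM among Kit- K5+ and 105, 227 and 181 CPM among Kit- K5- libraries. Every Kit+ library lay above every Kit- library, whereas K5+ and K5- overlapped on each side. The log2 difference for Kit was 1.67 ± 0.36 among K5+ and 2.27 ± 0.37 among K5- cells, and for K5 it was -0.54 ± 0.36 among Kit+ and 0.06 ± 0.36 among Kit- cells.

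Ccnd2 (chromosome 6, 127125162 to 127152193, minus strand) averaged highest in Kit- K5+ cells. It had 728, 2257 and 2806 CPM among Kit+ K5+ libraries, 233, 1670.2 and 2074 CPM among Kit+ K5- libraries, 2799.8, 3368 and 2377 CPM among Kit- K5+ libraries and 486, 929.6 and 936 CPM among Kit- K5- libraries. Within Kit- cells the K5+ libraries did not overlap the K5- libraries, with a log2 difference of 1.86 ± 0.62 and 2.53, 1.86 and 1.34 in the 3 runs. The Kit+ populations were scattered, with replicate 1 far below replicates 2 and 3 in each. The difference for Kit among K5- cells was 0.76 ± 0.60 over all libraries, 1.26 without Kit+ K5- replicate 1, the library with the mast cell transcripts, and 0.31 without Kit+ K5- replicate 3. On the epithelial scale that difference was -1.25. For K5 among Kit+ cells it was 0.54 ± 0.60 over all libraries, 0.04 without Kit+ K5- replicate 1 and 1.01 when replicate 3 of those cells was left out. For Kit among K5+ cells it was -0.56 ± 0.60 over all libraries, -0.14 without Kit+ K5+ replicate 1 and -0.90 when replicate 3 of those cells was left out. The part of mast cells in these values was not tested.

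Ccnd3 (chromosome 17, 47505051 to 47599691, plus strand) was highest in the Kit- K5- libraries. It had 27.7, 46.7 and 40.1 CPM among Kit+ K5+, 24.6, 37.7 and 31.8 CPM among Kit+ K5-, 24.0, 48.2 and 31.9 CPM among Kit- K5+ and 113, 130.7 and 85.8 CPM among Kit- K5- libraries. The 3 Kit- K5- libraries lay above the other 9, which overlapped throughout. Kit+ over Kit- was -1.81 ± 0.30 among K5- and 0.13 ± 0.29 among K5+ cells on the log2 scale. K5+ over K5- was -1.66 ± 0.30 among Kit- and 0.28 ± 0.29 among Kit+ cells. In Kit- K5- cells the mesenchyme markers moved with it: at an adjusted p under 0.05 in edgeR's fit, 16 of 16 were lower for Kit among K5- cells and 14 of 16 for K5 among Kit- cells. Their part in the level of Ccnd3 was not tested.

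To set the D cyclins side by side, their counts were divided by the annotated exon length. Ccnd2 then averaged the highest share in 3 of 4 populations, and Ccnd1 in Kit+ K5- cells. Ccnd2 took 58.5% ± 16.0 of the 3 among Kit+ K5+, 39.8% ± 25.6 among Kit+ K5-, 88.1% ± 4.41 among Kit- K5+ and 62.6% ± 4.20 among Kit- K5- cells (SD, n = 3). In Kit+ K5- cells the lead of Ccnd1 rested on replicate 1, without which Ccnd2 averaged 54.2% and Ccnd1 44.8%, and on the division by length, without which they averaged 52.98% and 45.5%. Ccnd1 took 40.1% ± 15.7 among Kit+ K5+, 59.1% ± 25.5 among Kit+ K5-, 10.8% ± 4.17 among Kit- K5+ and 27.2% ± 2.29 among Kit- K5- cells. The 3 Kit- K5+ libraries, at 5.98%, 13.6% and 12.7% of Ccnd1, lay below every other library. In the Kit+ populations the single libraries ran from 25.1% to 87.7% of Ccnd1, which is wider than the gap between their means. Ccnd3 took 0.857% to 1.71% in the 9 Kit+ and Kit- K5+ libraries and 14.8%, 9.20% and 6.62% in the Kit- K5- libraries. With TMM scaling, the summed D cyclin level per kilobase of exon was 329.9 ± 126 CPM among Kit+ K5+, 319.7 ± 83.1 CPM among Kit+ K5- and 344.6 ± 67.2 CPM among Kit- K5+ cells, and 132 ± 39.9 CPM among Kit- K5- cells, and the sums of the first 3 populations differed by less than the spread between their libraries. The sum was not computed on the epithelial scale. On that scale Ccnd1 was at -0.0042 and Ccnd2 at -1.25 on log2 for Kit among K5- cells. For K5 among Kit- cells Ccnd1 was at -1.38 there, while Ccnd2 stayed above 0. Ccnd3 was lower in both comparisons.

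**Figure D2:**
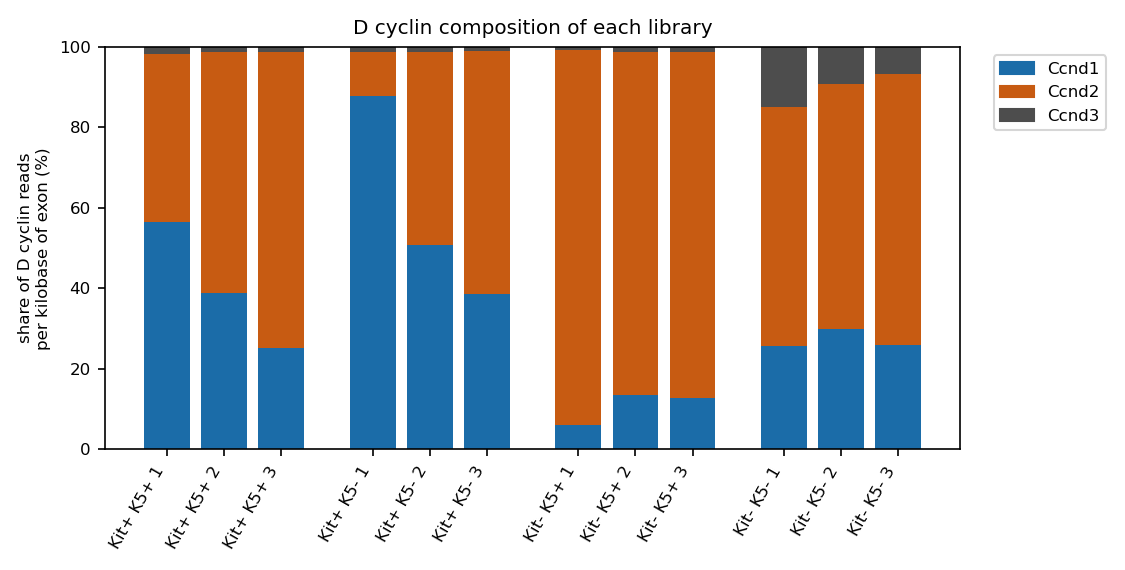
Bars give the share of Ccnd1, Ccnd2 and Ccnd3 in their summed reads per kilobase of exon, in percent, for each of the 12 libraries. Ccnd2 takes at least 85.1% in the 3 Kit- K5+ libraries, and Ccnd3 takes at most 1.71% in the 9 Kit+ and Kit- K5+ libraries and at least 6.62% in the 3 Kit- K5- libraries.

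With TMM scaling, the 3 CDK inhibitors overlapped between all 4 populations. On the epithelial scale all 3 were lower for Kit among K5- cells and for K5 among Kit- cells. There Cdkn1b was at -2.06 for Kit among K5- cells and at -0.97 for K5 among Kit- cells. Cdkn1a was at -1.92 for Kit among K5- cells on that scale. Cdkn1b (chromosome 6, 134920401 to 134925513, plus strand), which encodes p27, a brake held high in resting cells, had 48.4, 33.5 and 28.04 CPM among Kit+ K5+ and 45.4, 35.1 and 32.2 CPM among Kit+ K5- libraries. It had 41.1, 57.1 and 36.5 CPM among Kit- K5+ and 45.1, 29.3 and 26.2 CPM among Kit- K5- libraries. The 4 populations overlapped, and the log2 differences of -0.29 to 0.42 had standard errors of 0.28 to 0.29. Replicate 1 was the highest library in 3 of the 4 populations.

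Cdkn1a (chromosome 17, 29090976 to 29100727, plus strand), which encodes p21 and is a target of p53, had 24.6, 13.3 and 10.3 CPM among Kit+ K5+ and 76.7, 15.8 and 18.1 CPM among Kit+ K5- libraries. It had 16.5, 5.08 and 15.9 CPM among Kit- K5+ and 41.9, 12.03 and 25.9 CPM among Kit- K5- libraries. Replicate 1 was the highest library of every population, and K5+ was below K5- in 3 of 3 runs on each side of the Kit sort. The log2 difference for K5 was -1.19 ± 0.64 among Kit+ and -1.10 ± 0.64 among Kit- cells. Among Kit+ cells it was -0.07 without Kit+ K5- replicate 1, the library with the mast cell transcripts, and among Kit- cells -0.63 without Kit- K5- replicate 1. The difference for Kit among K5- cells was 0.47 ± 0.62 over all libraries and -0.65 without Kit+ K5- replicate 1.

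Cdkn2c (chromosome 4, 109660876 to 109667189, minus strand) had 3.41, 2.41 and 4.13 CPM among Kit+ K5+, 4.33, 2.42 and 2.77 CPM among Kit+ K5-, 6.13, 3.30 and 2.30 CPM among Kit- K5+ and 6.82, 8.12 and 3.37 CPM among Kit- K5- libraries. All 4 populations overlapped. Its log2 difference for Kit among K5- cells was -0.94 ± 0.53, below 0 in 3 of 3 runs, and for K5 among Kit- cells it was -0.64 ± 0.53.

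Per kilobase of exon, Ccnd2, Ccnd1, Myc and Myb averaged highest of the 10 in Kit+ K5+ cells, and Ccnd3, Mybl2 and Mycn lay among or below the inhibitors. The levels there were 205 ± 114 CPM per kilobase for Ccnd2, 120.4 ± 30.2 for Ccnd1, 106 ± 16.4 for Myc and 23.3 ± 9.83 for Myb. The lower 6 were Cdkn1b at 8.05 ± 2.32, Cdkn1a at 4.53 ± 2.12, Ccnd3 at 4.35 ± 1.10, Mybl2 at 2.88 ± 0.452, Cdkn2c at 1.24 ± 0.322 and Mycn at 0.398 ± 0.540 CPM per kilobase. In Kit+ K5- cells Myb, at 13.2 ± 1.78, and Cdkn1a, at 10.4 ± 9.72, differed by less than their spread. In Kit- K5- cells Myb, at 1.60 ± 0.110, was the 9th of the 10, behind Ccnd3 at 12.5 ± 2.58, Cdkn1a at 7.49 ± 4.21, Cdkn1b at 7.37 ± 2.22, Cdkn2c at 2.27 ± 0.914 and Mybl2 at 1.61 ± 0.177. Myb and Mybl2 differed there by less than their spread. Lengths were those of all annotated exons, so isoform use could move these levels.

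**Figure D3:**
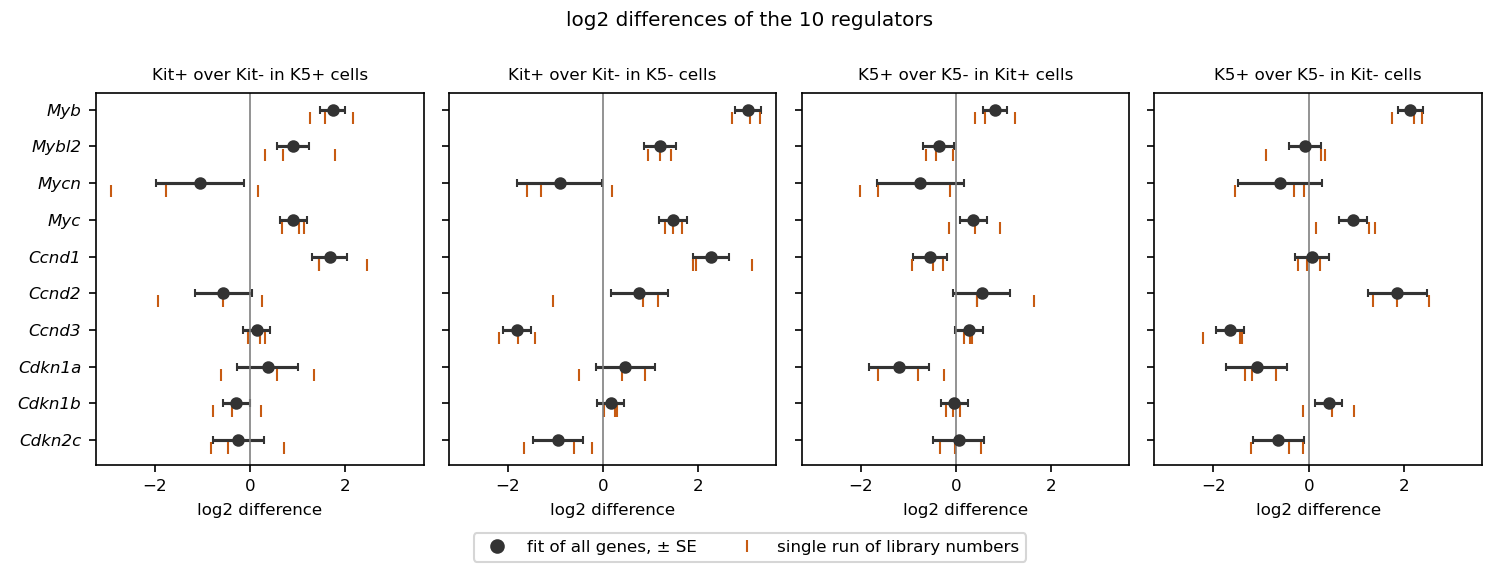
Points give the log2 difference of each regulator in the 4 comparisons with its standard error, and ticks the difference within each run of library numbers. Myb lies right of 0 in all 4 panels, as it does on the epithelial scale, while Ccnd1 lies right of 0 for Kit with TMM scaling but is at -0.0042 for Kit among K5- cells on the epithelial scale.

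In the fit of all 17030 genes, edgeR's quasi-likelihood test at an adjusted p under 0.05 called Myb for Kit among K5+ cells, where 0.658% of all genes were called, and 0 of 10 members for K5 among Kit+ cells. In that last comparison 0 genes in all were called (0%), 1161 had an unadjusted p under 0.05, and DESeq2 called 119. For Kit among K5- cells 5 of 10 members were called (Myb, Mybl2, Myc and Ccnd1 higher and Ccnd3 lower), against 21.3% of all genes, and for K5 among Kit- cells 3 of 10 (Myb and Myc higher and Ccnd3 lower), against 16.5%. For the interaction of Kit and K5, Ccnd3 was the 1 of 10 called, against 4.02% of all genes (2.81% positive and 1.21% negative). Single libraries did not overlap for 4 of 10 members for Kit among K5+ cells, all higher, against 20.5% of all genes (10.2% higher and 10.3% lower), and for 5 of 10 for Kit among K5- cells, 4 of them higher, against 41.3% (20.0% and 21.3%). For K5 they did not overlap for 2 of 10 among Kit+ cells, 1 higher and 1 lower, against 10.8% (4.86% and 5.92%), and for 4 of 10 among Kit- cells, 3 of them higher, against 37.1% (20.1% of all genes lower). Since the members were chosen on these levels, nothing is read from these counts or calls. With the replicate block on these runs, Myc and Ccnd1 were also called for Kit among K5+ cells (log2 0.93 and 1.74), and Ccnd2 for K5 among Kit- cells (2.05). Leaving out single libraries ended the call of Myb for Kit among K5+ cells in 3 of 12 cases (Kit+ K5+ replicate 1, Kit- K5+ replicates 1 and 2). It ended that of Mybl2 for Kit among K5- cells in 5 (Kit- K5- replicates 1, 2 and 3, Kit+ K5- replicates 2 and 3), and that of Myc for K5 among Kit- cells in all but 3 (Kit+ K5- replicate 1, Kit- K5+ replicate 3 and Kit- K5- replicate 3), with log2 values of 0.62 to 1.17. Calls were gained for Ccnd1 for Kit among K5+ cells without replicate 1 of Kit+ K5- or of Kit- K5-, for Ccnd2 for Kit among K5- cells without Kit+ K5- replicate 1, and for Ccnd2 for K5 among Kit- cells without replicate 1 of either Kit+ population. The other 6 calls of members held in 12 of 12.

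Differences against Kit- K5- cells depended on the scale. When libraries were scaled to the 19 genes of epithelium in general in place of TMM, the median of all genes moved by -2.19 on the log2 scale for Kit among K5- cells and by -1.41 for K5 among Kit- cells. It moved by -0.65 for Kit among K5+ cells, by 0.13 for K5 among Kit+ cells and by 1.53 for the interaction of Kit and K5. Myb stayed above 0 in all 4 comparisons but was smaller in 3, at 0.96 and 0.81 for Kit among K5+ and K5- cells and 0.86 and 0.71 for K5 among Kit+ and Kit- cells. Its calls for Kit among K5+ cells and for K5 among Kit- cells were lost on that scale, and that for Kit among K5- cells was kept. The TMM calls of Mybl2, Myc and Ccnd1 were also lost. For Kit among K5- cells Ccnd3, Cdkn1a, Cdkn1b, Cdkn2c and Mycn were called lower there, as were 12907 of all 17030 genes. For K5 among Kit- cells Ccnd1, Ccnd3, Cdkn1a, Cdkn1b, Cdkn2c and Mybl2 were called lower, as were 8864 of all genes. Nothing is read from these calls. For Kit among K5- cells Ccnd1 came to -0.0042, Myc to -0.66, Mybl2 to -0.98 and Ccnd3 to -3.98, and for K5 among Kit- cells Myc came to -0.50. For K5 among Kit- cells Myb and Ccnd2, at 0.71 and 0.42, were the 2 of 10 above 0.

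**Figure D4:**
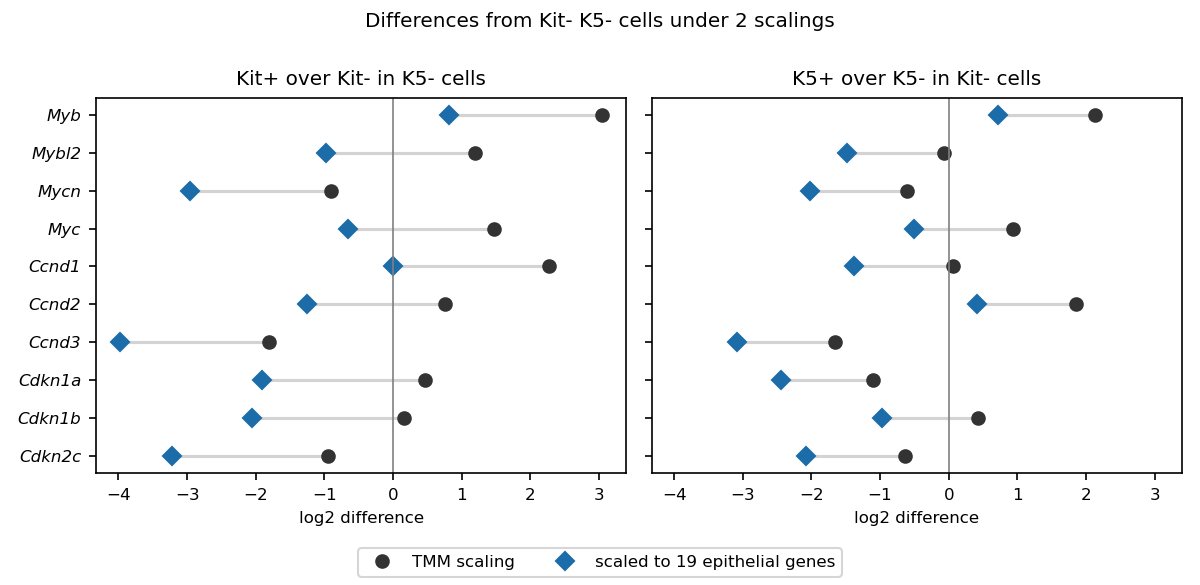
Each regulator has its log2 difference with TMM scaling (circles) and with scaling to 19 epithelial genes (diamonds), for Kit+ over Kit- in K5- cells on the left and K5+ over K5- in Kit- cells on the right. All diamonds lie left of their circles, and Myb is the 1 regulator to the right of 0 in the left panel under the epithelial scale.

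The other genes of these pathways were taken as 9 lists, chosen with earlier results of these data known, of which 137 of 140 genes passed the filter (3 genes stand in more than 1 list). For Kit among K5+ cells 4 of 137 rose in Kit+ cells and 0 fell, against 0.335% of all genes higher and 0.323% lower. They were Cad, which starts pyrimidine synthesis, at 199 ± 40.4 CPM among Kit+ K5+ and 70.1 ± 9.68 CPM among Kit- K5+ cells (log2 1.502 ± 0.23, adjusted p = 0.0182), the ribosome assembly factors Bop1 (1.44 ± 0.28, adjusted p = 0.0407) and Ddx21 (1.02 ± 0.20, adjusted p = 0.0407), and the mitotic kinase Aurkb (1.25 ± 0.21, adjusted p = 0.0246), all from edgeR's quasi-likelihood test. The 20 Myc-regulated genes had a median of 0.77, with 20 of 20 above 0, and the 20 E2F-regulated genes of DNA synthesis one of 0.71, also with 20 of 20 above 0, where the median of all genes was -0.05. On the epithelial scale those 2 medians were 0.10 and 0.03, and that of all genes was -0.70. With the block on runs, 31 of the 137 rose and 1 fell, among them 9 of 20 E2F-regulated and 8 of 20 Myc-regulated genes. Single libraries moved the 4 calls to 0 without Kit+ K5+ replicate 1 or 2 or Kit- K5+ replicate 1 or 2, to 2 without Kit+ K5+ replicate 3, Kit- K5+ replicate 3 or Kit- K5- replicate 2 or 3, and to 7 and 10 without Kit+ K5- replicates 2 and 1. The calls of Cad and Aurkb were lost in the same 4 cases that left 0, while that of Ddx21 held only without a Kit+ K5- library, in 3 cases, and that of Bop1 only without Kit+ K5- replicate 1 or 2. On the epithelial scale 0 of 137 rose and 4 fell.

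For Kit among K5- cells the cell cycle lists moved broadly, with 57 of 137 genes higher in Kit+ and 4 lower, against 10.2% and 11.1% of all genes, and with 0 higher and 117 lower on the epithelial scale. Of the mitotic genes regulated by Mybl2 and Foxm1, 17 of 20 rose (0 higher and 16 lower on the epithelial scale), with a median of 1.07 where that of all genes was 0.05. Among them Ube2c, a ubiquitin-conjugating enzyme of mitotic exit, had 276 ± 30.8 CPM among Kit+ K5- and 100.4 ± 31.4 CPM among Kit- K5- cells (log2 1.46 ± 0.25, adjusted p = 0.00127), and the spindle midzone protein Prc1 had 107 ± 3.39 CPM in the first and 53.1 ± 1.07 CPM in the second of these populations (1.01 ± 0.16, adjusted p = 6.46e-04). Of the E2F-regulated genes 10 of 20 rose (0 higher and 17 lower on the epithelial scale), with a median of 1.00. They were led by Rrm2, a subunit of ribonucleotide reductase, at 219.8 ± 48.8 CPM among Kit+ K5- and 54.1 ± 5.22 CPM among Kit- K5- cells (2.02 ± 0.30, adjusted p = 4.31e-04). Of the Myc-regulated genes 13 of 20 rose (0 higher and 13 lower on the epithelial scale), with a median of 1.07, led by Ddx21 (1.25 ± 0.20, adjusted p = 6.40e-04), the nucleoside diphosphate kinase Nme1 (1.68 ± 0.27, adjusted p = 8.28e-04) and the nucleolar Nolc1 (1.402 ± 0.23, adjusted p = 8.99e-04). These p-values are from edgeR's quasi-likelihood test. Under the block the counts came to 69 higher and 8 lower, none of the 61 calls was lost, and the E2F-regulated genes had 13 higher.

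Partners and direct regulators of the members were counted in the same comparison. Of the other cyclins and their kinases 8 of 19 rose, with Ccna2, the cyclin of S phase, at 239.9 ± 21.99 CPM among Kit+ K5- and 101 ± 10.01 CPM among Kit- K5- cells (log2 1.25 ± 0.18, adjusted p = 3.77e-04). Of the Rb and E2F family 4 of 13 rose, with the repressor E2f8 at 1.70 ± 0.24 (adjusted p = 2.99e-04) and the pocket protein Rbl1 at 0.90 ± 0.20 (adjusted p = 0.00693). On the epithelial scale these 2 lists had 0 higher and 18 and 12 lower. Lin54 and Foxm1 were the 2 of 7 MuvB partners that rose (0.69 ± 0.21 and 0.66 ± 0.22, adjusted p = 0.0312 and 0.0492), and 1 of 15 Myc partners fell, the Max-binding antagonist Mxd4 (-1.09 ± 0.30, adjusted p = 0.0202). On the epithelial scale 7 of 7 and 15 of 15 of those lists were lower, and with the block 1 Myc partner was higher and 2 were lower. With 1 library left out, the call of Lin54 was lost without Kit+ K5- replicate 1 or 3 or any Kit- K5- library, that of Mxd4 without Kit+ K5- replicate 3 or Kit- K5- replicate 1 or 2, and that of Foxm1 in all but 3 of 12 cases (Kit+ K5+ replicate 1 or 3, Kit- K5+ replicate 2). All are from edgeR's quasi-likelihood test.

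Among the other CDK inhibitors and their regulators, Cdkn1c separated the Kit- K5- libraries from the rest. This Cip/Kip inhibitor, which encodes p57, had 412, 473 and 353 CPM among Kit+ K5+, 155, 307 and 239 CPM among Kit+ K5-, 775, 626 and 208 CPM among Kit- K5+ and 1805, 1851 and 1319.8 CPM among Kit- K5- libraries. The 3 Kit- K5- libraries lay above all others, Kit+ K5+ lay above Kit+ K5-, and Kit- K5+ overlapped both. It fell by 2.83 ± 0.40 on the log2 scale in Kit+ K5- against Kit- K5- cells (adjusted p = 2.77e-04) and by 1.63 ± 0.38 in Kit- K5+ against Kit- K5- cells (adjusted p = 0.0112, edgeR's quasi-likelihood test), and was at -4.97 and -3.07 on the epithelial scale. The mesenchyme markers were high in the same Kit- K5- libraries, and their part was not tested. Cks1b, a partner of the ligase that degrades p27 and not an inhibitor itself, rose by 0.82 ± 0.20 for Kit among K5- cells (adjusted p = 0.00932), was at -1.36 on the epithelial scale, and lost its call without Kit+ K5- replicate 2. Cdkn2a had 0 counts in all 12 libraries and Cdkn2b at most 10, and both missed the filter.

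For K5 among Kit+ cells 0 of the 137 pathway genes passed, with or without the block on runs, in edgeR's quasi-likelihood test or in DESeq2. The list medians ran from -0.12 for the E2F-regulated genes to 0.32 for the mitotic genes, where that of all genes was -0.04. For K5 among Kit- cells 20 of 137 were higher in K5+ and 2 lower, against 7.38% and 9.10% of all genes, and 1 higher and 80 lower on the epithelial scale. Of the mitotic genes 12 of 20 rose, with a median of 0.81 (0 higher and 2 lower on the epithelial scale), among them Kif23, a kinesin of cytokinesis, at 171 ± 34.7 CPM among Kit- K5+ and 66.2 ± 9.59 CPM among Kit- K5- cells (log2 1.37 ± 0.22, adjusted p = 8.40e-04). Of the E2F-regulated genes 0 of 20 passed, with a median of -0.11 (0 higher and 17 lower on the epithelial scale). With the block on runs 5 of these 20 passed, of which the nucleotide synthesis genes Rrm1 and Tyms were higher (0.52 ± 0.17 and 0.53 ± 0.18, adjusted p = 0.0449 and 0.0472) and the replication genes Gins2, Mcm2 and Mcm3 lower (-0.91 ± 0.31, -0.52 ± 0.18 and -0.59 ± 0.19, adjusted p = 0.0464, 0.0488 and 0.0414, edgeR's quasi-likelihood test). These 5 were named after their values had been seen. Of the Myc-regulated genes 1 of 20 passed (3 with the block, 2 higher and 1 lower), the spermidine synthase gene Srm, which was lower in K5+ cells (-1.20 ± 0.37, adjusted p = 0.0390). Cyclins B1 and A2 rose, with Ccnb1 at 1.11 ± 0.23 (adjusted p = 0.00583) and Ccna2 at 0.82 ± 0.18 (adjusted p = 0.00864), and were at -0.30 and -0.60 on the epithelial scale. With the block 28 of 137 rose and 6 fell. The 22 calls came to 9, 13 and 13 without Kit- K5- replicates 1, 2 and 3 and to 11 without Kit- K5+ replicate 2, with that of Ccna2 lost if Kit- K5+ replicate 2 or replicate 1 of Kit- K5- was left out, and that of Srm without Kit- K5+ replicate 1 or 3 or any Kit- K5- library.

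**Figure D5:**
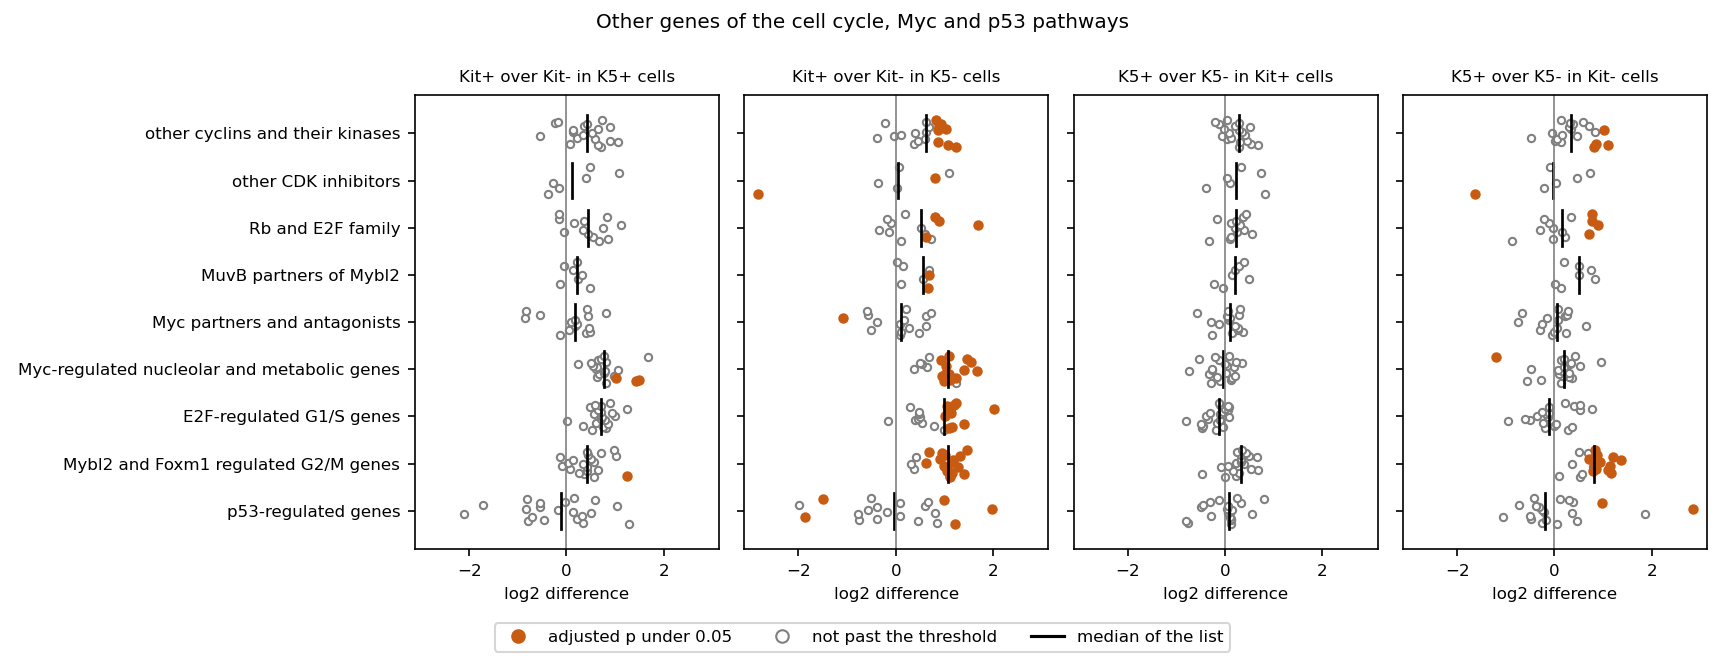
Each point is the log2 difference of 1 gene of the 9 pathway lists in 1 of the 4 comparisons, filled where edgeR's adjusted p was under 0.05, with a line at the median of the list. Filled points are most frequent among mitotic, Myc-regulated and E2F-regulated genes for Kit in K5- cells, at 17, 13 and 10 of 20 with TMM scaling and 0 higher on the epithelial scale, and for K5 in Kit- cells they lie mostly in the mitotic list.

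The p53-regulated list, which holds targets shared with Cdkn1a, moved in no single direction. For Kit among K5- cells 3 of 20 rose and 2 fell, and for K5 among Kit- cells 2 rose and 0 fell, while with the block on runs 5 rose and 5 fell for Kit among K5- cells, and on the epithelial scale 17 fell in the first case and 1 rose and 14 fell in the other. Trp53, which encodes p53 itself, had 338 ± 70.7 CPM among Kit+ K5- and 169 ± 23.3 CPM among Kit- K5- cells (log2 1.00 ± 0.23, adjusted p = 0.00676, and -1.17 on the epithelial scale). Perp, a protein of desmosomes and a p53 target, rose by 1.99 ± 0.34 (adjusted p = 0.00112, and was at -0.19 on the epithelial scale), while Trp53inp1 fell by 1.49 ± 0.26 (adjusted p = 0.00143, edgeR's quasi-likelihood test). Perp also rose for K5 among Kit- cells, by 2.85 ± 0.35 (adjusted p = 1.34e-04), and by 1.39 on the epithelial scale, together with the stress-response gene Sesn1 (0.98 ± 0.18, adjusted p = 0.00287, and -0.43 on the epithelial scale).

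The genes closest to each member over the 12 libraries, by Pearson's r of log2 CPM among 8782 genes of at least 10 CPM on average, are given as a description. All 12 points share the 4 populations, so that genes which separate them score high. Myb lay closest to Foxa1, a pioneer factor of endodermal epithelium, and Hmmr, a spindle protein (r = 0.98 and 0.98, Spearman's rho 0.99 and 0.97). Myc lay closest to Ube2c and C1qbp (0.97 and 0.97), Ccnd1 to Hspd1 and Uchl5 (0.97 and 0.96), and Mybl2 to Tbrg4 and Incenp (0.92 and 0.88). Ccnd2 lay closest to Pdpn, which encodes podoplanin, and Moxd1 (0.98 and 0.97), and Ccnd3 to Ppap2b and Igfbp3 (0.96 and 0.95). The inhibitors had Pnn and Bsdc1 for Cdkn1a (0.94 and 0.92), Klf10 and Nr1d1 for Cdkn1b (0.93 and 0.87) and Ap3b1 and Hmox1 for Cdkn2c (0.92 and 0.88), and Mycn had Airn and Ccdc138 (0.85 and 0.85). By Spearman's rho some of these genes were not among the closest. Tbrg4 and Incenp had ranks 55 and 116 for Mybl2, and Hspd1 had rank 66 for Ccnd1. C1qbp had rank 59 for Myc and Ccdc138 rank 52 for Mycn. The other genes named had rank 23 or better.

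Exons of 5 members overlap a gene on the opposite strand in the GENCODE M21 annotation. The longest overlaps are 818 of 4709 exon bases of Ccnd1 with LTO1, 361 of 8775 of Ccnd3 with Bysl, 372 of 9409 of Ccnd2 with Gm43126, 273 of 3553 of Cdkn1a with AC167363.2 and 268 of 8933 of Myb with Gm26577. The sources used here do not state whether counting used strand, and without strand the reads of such stretches cannot be told apart.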

How the data were processed

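RNA-seq of 12 sorted libraries (3 for each of 4 populations) was deposited as raw read counts per gene symbol. Per the labels' protocols, total RNA was read as single-end reads of 50 nt. Per the submitters' processing notes, STAR 2.4.2a, Picard 1.129, FastQC and featureCounts 1.4.6-p3 from Subread were used with mouse build GRCm38; neither the annotation release nor the strand setting is stated in those sources. The members and gene lists were chosen with earlier results of these data known. From the deposited counts, CPM, read counts scaled to library size, were computed with TMM scaling in edgeR 4.0.16 (R 4.3.3), and 17030 genes passed filterByExpr. A quasi-likelihood fit with 1 coefficient per population over all 12 libraries had 8 residual degrees of freedom, with Benjamini-Hochberg adjustment over all genes and a threshold of 0.05. The procedure was also run on simulated counts, drawn independently for each library. They held neither a pairing by runs nor a broad shift between populations, so they do not test the calls under those features.

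Genes named were all members, Kit, Krt5 and Cdh1, up to 3 genes per pathway list, comparison and direction by smallest adjusted p, pathway genes called for the interaction, and the 2 genes most like each member. Cdkn2a and Cdkn2b fell outside that rule and were named after their values had been seen. Labels do not tie libraries to separate animals or litters, so p-values measure only the spread between these samples. Same-numbered replicates come from the same run of library numbers, and their deviations correlated at 0.108 to 0.408 across the 4 comparisons, with every pair above 0.1. The labels do not say that a run shares a sort. Blocked counts are therefore given where they differ by over 1.5 times for a comparison or for a list described with its counts. Alternatives were DESeq2 1.42.0, its size factors in edgeR, upper-quartile scaling, scaling to 19 epithelial genes, no filter, the compared groups alone, the block, and leaving out each library. The intervals of levels are SDs over libraries. Exon lengths are from GENCODE M21 on GRCm38.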

Additional observations from a re-analysis of the deposited data

Results flagged for a closer look

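The effect of K5 differed between Kit+ and Kit- cells, or equally that of Kit between K5+ and K5- cells, for 2 pathway genes in the interaction term of edgeR's quasi-likelihood fit. Perp had an interaction of -2.81 ± 0.47 on the log2 scale (SE, adjusted p = 0.00405). It had 202 ± 46.3 CPM among Kit+ K5+ and 196 ± 28.1 CPM among Kit+ K5- cells, against 357 ± 162 CPM among Kit- K5+ and 49.5 ± 17.8 CPM among Kit- K5- cells (SD, n = 3). Cdkn1c had an interaction of 2.45 ± 0.54 (adjusted p = 0.0206), with 413 ± 60.1 CPM among Kit+ K5+ and 233 ± 76.2 CPM among Kit+ K5- cells, against 536 ± 294 CPM among Kit- K5+ and 1659 ± 294 CPM among Kit- K5- cells. Interactions were called for 4.02% of all genes (684), which came to 370 and 396 without Kit- K5- replicates 1 and 2 and to 416 without Kit+ K5+ replicate 2. All these values are with TMM scaling, where 478 of the 684 were positive and 206 negative. On the epithelial scale 5019 were positive and 116 negative, so the size of an interaction and the direction of the calls depended on the scale. The interactions of Perp and Cdkn1c are given with TMM scaling only.

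Ccnd3 had K5 differences of opposite sign in Kit+ and Kit- cells in 3 of 3 runs, although that among Kit+ cells (0.28 ± 0.29 over the fit) was not called. The log2 difference of K5+ over K5- was 0.17, 0.31 and 0.33 in the 3 runs among Kit+ cells and -2.22, -1.43 and -1.41 among Kit- cells, a difference of 1.94 over the fit. The interaction of Ccnd3 was called in the fit of all genes, but the gene was chosen on these levels, so the call is not independent evidence of it. The mesenchyme markers were at their highest sums in the Kit- K5- libraries that enter each of these 3 results, and their part was not tested.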

How the results depend on the processing

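Of 760 alternative values for members, 727 moved by less than the spread between replicates and 33 further. Of the 480 values with 1 library left out, 474 stayed within the spread. Leaving out 1 of 3 libraries moves a mean little by construction, so no stability is read from these. On the epithelial scale 27 of 40 values went beyond the spread, and 0 of 240 did in the other settings. The sign changed in 29, of which 12 came from scaling to the epithelial genes, 14 from leaving out 1 library and 3 from other settings. The sign changes of values that were called were 4, all from the epithelial genes: for Kit among K5- cells Mybl2 was at -0.98, Myc at -0.66 and Ccnd1 at -0.0042, and for K5 among Kit- cells Myc was at -0.50; the cause was not tested. In Kit among K5+ cells, 112 genes and 4 pathway genes were called. DESeq2 called 1039 and 34, no filter 1212 and 27, the compared groups alone 72 and 2, and the replicate block on runs 788 and 32, while the epithelial scale called 765 genes. For Kit among K5- cells, 3624 genes and 61 pathway genes came to 12939 and 117 on the epithelial scale. For K5 among Kit+ cells, 0 genes came to 119 with DESeq2, 39 on the epithelial scale, 318 with no filter and 54 with the replicate block, and 0 pathway genes to 1 with no filter. For K5 among Kit- cells, 2806 genes came to 9030 on the epithelial scale, and 22 pathway genes to 81 there and 34 with the replicate block. The 684 interactions came to 1411 with DESeq2, 5135 on the epithelial scale, 1960 with no filter and 1418 with the replicate block. Beside the calls named with the members, the block changed none of theirs, and it ended no pathway call. Other settings changed calls of members too. DESeq2 added Ccnd1 for Kit among K5+ cells. Ccnd2 for K5 among Kit- cells was added by DESeq2, upper-quartile scaling, the compared groups alone and no filter. With no filter Mybl2 was lost and Ccnd2 gained for Kit among K5- cells. Ccnd1 and Myc were then gained for Kit among K5+ cells, and Cdkn1a, lower, for K5 among Kit- cells. Nothing is read from these changes. On the epithelial scale the split of higher and lower calls was 12 and 753 for Kit among K5+ cells, against 57 and 55 with TMM, and 166 and 8864 for K5 among Kit- cells, against 1256 and 1550; for Kit among K5- cells only 32 of 12939 were higher. Upper-quartile scaling gave 35 higher and 64 lower for Kit among K5+ cells, 1974 and 1751 for Kit among K5- cells, and 1587 and 1329 for K5 among Kit- cells.

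With 1 library left out, the counts for Kit among K5+ cells ran from 4 to 240 genes and from 0 to 10 pathway genes; they were 4, 12 and 43 genes without Kit+ K5+ replicates 1, 2 and 3, 240 and 69 without Kit+ K5- replicates 1 and 3, 5, 11 and 63 without Kit- K5+ replicates 1, 2 and 3, and 70, 31 and 58 without Kit- K5- replicates 1, 2 and 3. For Kit among K5- cells they ran from 2123 to 3754 genes and from 41 to 64 pathway genes, with 2123 without Kit+ K5- replicate 2 and 2197 and 2398 without Kit- K5- replicates 1 and 2. For K5 among Kit+ cells they ran from 0 to 4 genes, with 3 and 4 without Kit+ K5- replicates 2 and 3, and 0 pathway genes each time. For K5 among Kit- cells they ran from 1362 to 3157 genes and from 9 to 24 pathway genes, with 1362 and 1642 genes without Kit- K5- replicates 1 and 2. Interactions ran from 370 to 729.

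Without division by exon length, Ccnd2 averaged above Ccnd1 in all 4 populations, Ccnd1 took 5.73% and Ccnd2 93.1% of D cyclin counts in Kit- K5+ cells, 15.9% and 73.0% in Kit- K5- cells, and Ccnd3 1.56% in Kit+ K5- cells. With 1 library left out, the per-length shares stayed within 1 SD of their means. For means of so few libraries this holds by construction, so no stability is read from it. Without Kit+ K5- replicate 1, the share of Ccnd1 in Kit+ K5- cells fell from 59.1% to 44.8%. That of Ccnd2 there rose from 39.8% to 54.2%, so the order of these cyclins changed.

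Mycn rested on 2 to 69 reads a library, which limits what can be read from it at this depth.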
